A study of Homo sapiens with 6 samples.

Results

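A set of 8 genes of the red cell membrane, its blood groups and the receptor that drives red cell formation were followed across 3 cell lines. They are GYPB, GYPE, RHAG, KEL, XK, ANK1, EPB42 and EPOR, 8 of the 61498 genes in the deposited tables. They were selected on their read counts and TPM in these same libraries, so that their own values are given as a description. Their edgeR calls are counted beside those of all genes, and nothing is read from those counts. RPMI-8226-R is the derivative of the myeloma line RPMI-8226 that resists bortezomib, an inhibitor of the proteasome. RPMI-8226 is the parental line. NCI-BL2171 is the third line, and the labels call all 3 lines B lymphocytes. Total RNA of untreated cells was sequenced after removal of ribosomal RNA, with 2 libraries per line of 23952372 to 29052194 reads each, which the labels do not tie to separate cultures. A p-value here therefore measures the spread between libraries, which may be technical.

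The red cell membrane is a lipid bilayer held to a spectrin network on its inner face. ANK1, the erythroid ankyrin, ties that network to the anion exchanger SLC4A1, and EPB42 binds both of them. Glycophorins and the Rh proteins cross the bilayer and carry blood group antigens. The Kell glycoprotein KEL, a zinc endopeptidase that cleaves big endothelins, is bound by a disulfide bond to XK, a lipid scramblase. EPOR is the receptor for erythropoietin and signals through the kinase JAK2 and the transcription factor STAT5 in red cell precursors.

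The labelled cell type was checked against marker genes. B cell markers summed to 193 and 200 TPM in RPMI-8226-R, to 6717 and 6813 TPM in RPMI-8226, and to 5.12 TPM in both libraries labelled NCI-BL2171, where MS4A1, PAX5 and BLK had no read. TPM is a share of transcripts, and so a level per unit of transcript length. Plasma cell markers summed to 4615 and 4768 TPM in RPMI-8226-R, 3168 and 3307 TPM in RPMI-8226 and 47.9 and 50.5 TPM in the libraries labelled NCI-BL2171. Red cell lineage markers summed to 231 and 249 TPM in RPMI-8226-R, 109 and 108 TPM in RPMI-8226, and 64000.5 and 61244.8 TPM in the libraries labelled NCI-BL2171, where all 14 of them reached 1 TPM. Megakaryocyte markers summed to 1.21 and 2.04 TPM in RPMI-8226-R, 1.61 and 0.703 TPM in RPMI-8226, and 89.4 and 83.0 TPM in the libraries labelled NCI-BL2171, where 2 of 10 reached 1 TPM and GP9, GP1BA, PF4 and PPBP had no read. Myeloid markers summed to 43.4 and 45.1 TPM in RPMI-8226-R, 54.1 and 48.1 TPM in RPMI-8226, and 121 and 118 TPM in the libraries labelled NCI-BL2171, and T and NK cell markers to at most 6.92 TPM in any library. The red cell factor GATA1 had no read in any RPMI-8226-R or RPMI-8226 library and 94.1 and 86.6 TPM in the libraries labelled NCI-BL2171. These values go against the B lymphocyte label of NCI-BL2171, and its libraries are named by that label only. The part of cell identity in the values below was not tested, and in bulk RNA fewer cells of a type and less RNA per cell cannot be told apart.

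The members fell into 3 patterns. GYPB, GYPE, RHAG, ANK1 and EPB42 were at or near 0 in both RPMI lines and were read in the libraries labelled NCI-BL2171. XK was read in all 3 lines and was highest in the libraries labelled NCI-BL2171, and EPOR was read in all 3 lines and was lowest there. KEL was the exception to a split between the RPMI lines and the rest, since its levels in RPMI-8226-R and in the libraries labelled NCI-BL2171 overlapped and RPMI-8226 stood apart. The summed level of the 8 members was 35.9 and 43.2 TPM in RPMI-8226-R, 11.1 and 13.5 TPM in RPMI-8226, and 580.9 and 571.1 TPM in the libraries labelled NCI-BL2171. KEL made up 54.0% and 60.2% of that sum in RPMI-8226-R, EPOR 69.6% and 70.5% of it in RPMI-8226, and RHAG 42.2% and 43.1% of it in the libraries labelled NCI-BL2171.

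**Figure D1:**
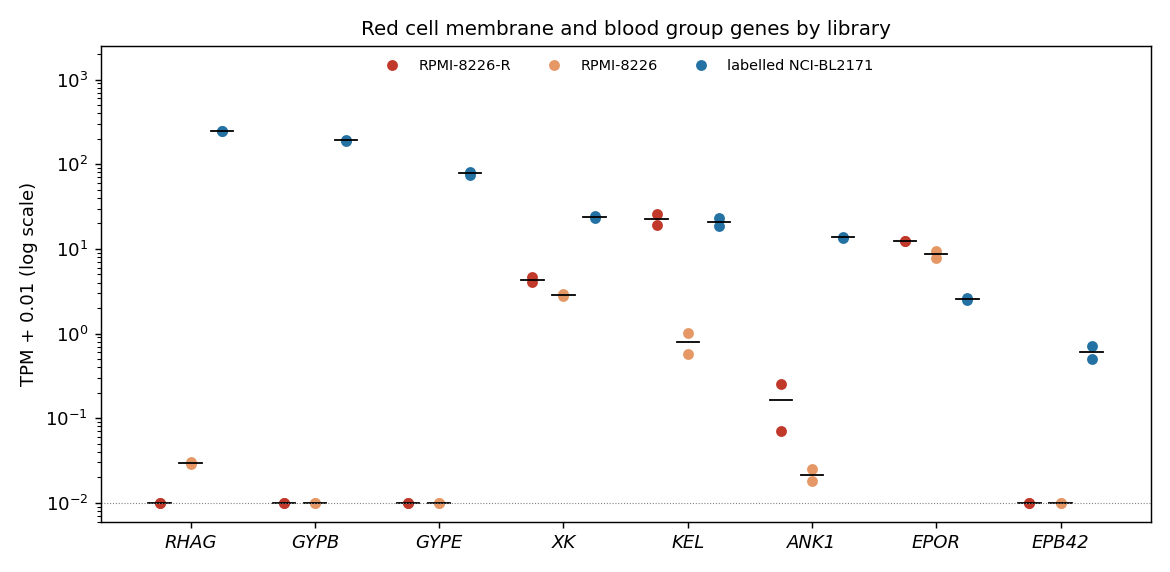
Level of each member in every library, as TPM plus 0.01 on a log axis. Points are libraries, black lines are means of 2 libraries, and the dotted line marks 0 TPM. RHAG, GYPB and GYPE are at or near the dotted line in both RPMI lines and lie above 75 TPM in the libraries labelled NCI-BL2171, while KEL is low in RPMI-8226 alone.

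All 8 members passed the filter on low counts, 5 of them (GYPB, GYPE, RHAG, ANK1 and EPB42) only through their reads in the libraries labelled NCI-BL2171. In RPMI-8226-R against RPMI-8226, 3 members were called higher by edgeR at an adjusted p under 0.05 (ANK1, KEL and XK), 0 lower and 5 neither way, where 65.6% of all 20081 tested genes were called, 28.5% higher and 37.2% lower. In RPMI-8226-R against NCI-BL2171, 1 member was called higher (EPOR), 6 lower and 1 neither way (KEL), where 77.4% of all tested genes were called, 39.2% higher and 38.2% lower. In RPMI-8226 against NCI-BL2171, 1 was called higher (EPOR) and 7 lower, where 76.7% of all tested genes were called, 41.1% higher and 35.6% lower. The libraries of 2 lines did not overlap in TPM for 77.7% of tested genes in RPMI-8226-R against RPMI-8226, for 84.8% in RPMI-8226-R against NCI-BL2171 and for 86.4% in RPMI-8226 against NCI-BL2171. Both comparisons against NCI-BL2171 share the same 2 libraries, so their values are given side by side and do not count as separate evidence. Because the members were chosen with these comparisons known, nothing is read from those counts.

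RHAG, the Rh-associated glycoprotein that the Rh antigens need to reach the cell surface and that conducts ammonia, was the highest member in the libraries labelled NCI-BL2171 and was at or near 0 in both RPMI lines. It lies on chromosome 6 (ENSG00000112077.18, chr6:49605158-49636884, minus strand, GRCh38). It had 0 reads in both RPMI-8226-R libraries, 1 read in each RPMI-8226 library, and 11462 and 10299 reads, or 245.0 and 246.2 TPM, in the libraries labelled NCI-BL2171. No library of the RPMI lines came near the others. In the libraries labelled NCI-BL2171 only 2.67% and 2.72% of detected genes had a higher TPM than RHAG. Against a floor of 3 counts per library, RHAG was at least 3882-fold lower in RPMI-8226-R than in the libraries labelled NCI-BL2171. In RPMI-8226 the count ratio was 10905-fold lower (95% exact counting interval 3018 to 90048). Floors and counting intervals of this kind cover counting error only.

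GYPB and GYPE are neighbouring glycophorin genes on chromosome 4. Glycophorin B carries the S and s antigens of the MNS blood group, and GYPE is a close copy in the same cluster. GYPB (ENSG00000250361.9, chr4:143996104-144019345, minus strand, GRCh38) had 0 reads in the 2 RPMI-8226-R libraries, 0 in the 2 RPMI-8226 libraries, and 1788 and 1530 reads, or 193.1 and 188.9 TPM, in the libraries labelled NCI-BL2171. GYPE (ENSG00000197465.14, chr4:143870867-143905563, minus strand, GRCh38) had 0 reads in every RPMI-8226-R and RPMI-8226 library, and 2923 and 2705 reads, or 80.1 and 75.7 TPM, in the libraries labelled NCI-BL2171. Neither gene overlapped between the RPMI lines and those libraries. GYPB was at least 591-fold lower in RPMI-8226-R and at least 553-fold lower in RPMI-8226 than in the libraries labelled NCI-BL2171. GYPE was at least 1005-fold lower in RPMI-8226-R and at least 940-fold lower in RPMI-8226. GYPE had more reads than GYPB and the lower TPM, because its deposited lengths were 1412 and 1543 bases against 466 and 465 bases for GYPB in the libraries labelled NCI-BL2171. The TPM of GYPB over that of GYPE was 2.41 and 2.50 there. Of the 31-base words in the annotated transcripts, GYPB shared 5.74% with GYPE, so the split of reads between these copies is uncertain.

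ANK1 (ENSG00000029534.21, chr8:41653220-41896762, minus strand, GRCh38) had 12 and 15 reads in RPMI-8226-R, 4 and 2 reads in RPMI-8226, and 2677 and 2372 reads in the libraries labelled NCI-BL2171. Its level was 0.061 and 0.245 TPM in RPMI-8226-R, 0.015 and 0.008 TPM in RPMI-8226, and 13.5 and 13.8 TPM in the libraries labelled NCI-BL2171. The 3 lines did not overlap, with RPMI-8226 lowest, although both RPMI lines stayed below 1 TPM. The log2 fold change was -7.63 ± 0.15 (edgeR estimate ± SE) in RPMI-8226-R against NCI-BL2171 and -9.66 ± 0.19 in RPMI-8226 against NCI-BL2171. Between the RPMI lines it was 2.03 ± 0.50, from 27 reads in RPMI-8226-R and 6 reads in RPMI-8226, and ranged between 0.18 and 2.92 over the alternative settings. The 4-fold difference in TPM between the RPMI-8226-R libraries comes with deposited mean transcript lengths of 7410 and 2421 bases for 12 and 15 reads.

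EPB42 (ENSG00000166947.15, chr15:43197227-43221125, minus strand, GRCh38) was the lowest member in the libraries labelled NCI-BL2171. It had 0 reads in all RPMI-8226-R and RPMI-8226 libraries, and 32 and 40 reads, or 0.492 and 0.701 TPM, in the libraries labelled NCI-BL2171. Its level was at least 12.9-fold lower in RPMI-8226-R and at least 12.1-fold lower in RPMI-8226 than in those libraries. The counting floor thus allows a far smaller bound for EPB42 than for RHAG or the glycophorins. Its binding partner SLC4A1, the band 3 anion exchanger, was as low, with 0 reads in RPMI-8226-R, 0.016 and 0 TPM in RPMI-8226, and 0.495 and 0.685 TPM in the libraries labelled NCI-BL2171.

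KEL (ENSG00000197993.9, chr7:142941114-142962681, minus strand, GRCh38) was the member with the largest difference between the RPMI lines among those read in both. It had 785 and 1015 reads in RPMI-8226-R, 39 and 28 reads in RPMI-8226, and 885 and 779 reads in the libraries labelled NCI-BL2171. In TPM these were 19.4 and 26.0 in RPMI-8226-R, 0.566 and 0.996 in RPMI-8226, and 22.9 and 18.7 in the libraries labelled NCI-BL2171. RPMI-8226-R and the libraries labelled NCI-BL2171 overlapped, and RPMI-8226 lay below both. KEL averaged 22.7 ± 4.68 TPM in RPMI-8226-R, 0.781 ± 0.304 TPM in RPMI-8226 and 20.8 ± 2.93 TPM in the libraries labelled NCI-BL2171 (SD, n = 2 each). The log2 fold change was 4.64 ± 0.16 in RPMI-8226-R against RPMI-8226, a 24.98-fold difference, and -4.63 ± 0.16 in RPMI-8226 against NCI-BL2171. In RPMI-8226-R against NCI-BL2171 it was 0.01 ± 0.11, between -0.12 and 0.14 over the alternative settings. In RPMI-8226 the library with more reads had the lower TPM, since its deposited mean length was 2241 bases against 1032 bases in the other library.

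XK (ENSG00000047597.7, chrX:37685756-37732130, plus strand, GRCh38), the partner of Kell, did not follow KEL. It had 4.06 and 4.61 TPM in RPMI-8226-R, 2.78 and 2.95 TPM in RPMI-8226, and 23.3 and 24.3 TPM in the libraries labelled NCI-BL2171. The 3 lines did not overlap, and XK has 1 annotated transcript, so its deposited length was 5174 bases in every library. The log2 fold change was -2.60 ± 0.08 in RPMI-8226-R against NCI-BL2171 and -2.84 ± 0.08 in RPMI-8226 against NCI-BL2171. Between the RPMI lines it was 0.24 ± 0.09, a 1.18-fold difference, where the median over all tested genes was -0.12. The TPM of KEL over that of XK was 4.77 and 5.64 in RPMI-8226-R, 0.204 and 0.338 in RPMI-8226, and 0.982 and 0.770 in the libraries labelled NCI-BL2171. Transcripts of the pair were thus in near balance in the libraries labelled NCI-BL2171 alone.

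EPOR (ENSG00000187266.14, chr19:11377205-11384342, minus strand, GRCh38) ran the other way from the membrane genes. It had 12.4 and 12.3 TPM in RPMI-8226-R, 7.73 and 9.48 TPM in RPMI-8226, and 2.51 and 2.60 TPM in the libraries labelled NCI-BL2171. Both RPMI lines lay above the libraries in which red cell markers were high. The log2 fold change was 1.89 ± 0.15 in RPMI-8226-R against NCI-BL2171, a 3.70-fold difference, and 1.80 ± 0.15 in RPMI-8226 against NCI-BL2171. In RPMI-8226-R against RPMI-8226 it was 0.09 ± 0.13 and lay between -0.04 and 0.52 over the alternative settings. The RPMI lines did not overlap in TPM, but they did overlap in CPM, the normalised count per library that takes no account of length, with 18.9 and 18.2 CPM in RPMI-8226-R and 15.9 and 19.1 CPM in RPMI-8226. The start of EPOR overlaps the end of RGL3 on the same strand, and RGL3 had at most 60 reads in any library.

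Of the 6 members with a RefSeq entry, 4 had no more than 1 read in any RPMI library. KEL and EPOR were read in both RPMI lines, where GATA1 had no read. Stretches of promoter sequence are shown for these 6 members. Each runs from 150 bases before to 20 bases after the RefSeq start site on GRCh38.p14, read along the gene. Capitals mark matches on either strand to AGATAA, the usual site of the red cell factor GATA1, to the related site TGATAA, and to CACCC, a motif of the kind KLF1 binds. Reverse complements are capitalised as they stand in the stretch.
GYPB (chr4:144019361-144019530, minus strand): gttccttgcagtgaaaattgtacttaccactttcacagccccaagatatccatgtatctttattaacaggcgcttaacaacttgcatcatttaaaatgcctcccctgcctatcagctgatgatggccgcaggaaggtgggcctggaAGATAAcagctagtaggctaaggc
GYPE (chr4:143905540-143905709, minus strand): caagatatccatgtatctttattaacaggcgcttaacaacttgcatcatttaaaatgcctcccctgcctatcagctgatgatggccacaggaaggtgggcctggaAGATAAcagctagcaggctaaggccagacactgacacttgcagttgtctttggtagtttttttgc
EPB42 (chr15:43220999-43221168, minus strand): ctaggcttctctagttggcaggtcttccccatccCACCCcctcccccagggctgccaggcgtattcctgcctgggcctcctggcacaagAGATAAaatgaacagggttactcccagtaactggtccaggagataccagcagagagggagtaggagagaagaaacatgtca
RHAG (chr6:49636820-49636989, minus strand): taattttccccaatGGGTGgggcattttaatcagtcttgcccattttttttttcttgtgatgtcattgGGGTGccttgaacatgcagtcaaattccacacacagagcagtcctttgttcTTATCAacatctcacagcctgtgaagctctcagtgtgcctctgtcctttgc
KEL (chr7:142962344-142962513, minus strand): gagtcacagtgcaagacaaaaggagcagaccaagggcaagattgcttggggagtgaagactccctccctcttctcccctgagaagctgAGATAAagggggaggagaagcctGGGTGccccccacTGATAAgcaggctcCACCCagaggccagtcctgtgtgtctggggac
EPOR (chr19:11384295-11384464, minus strand): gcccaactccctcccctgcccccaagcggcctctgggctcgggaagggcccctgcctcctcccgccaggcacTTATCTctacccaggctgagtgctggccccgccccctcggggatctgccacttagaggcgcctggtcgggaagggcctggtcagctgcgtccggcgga

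Each of the 6 stretches held AGATAA or TGATAA, against 9.58% of 27305 RefSeq promoters of the same 170 bases. AGATAA was in 5.82% of all these promoters, TGATAA in 4.28% and CACCC in 41.4%. Of the 6 stretches 3 held CACCC. The members were chosen on their levels in these libraries, so no excess is read from these shares, and a part of GATA1 was not tested. No motif overlapped another in the printed stretches. KEL held AGATAA 62 bases before its start site (-62) and TGATAA at -26, each followed by a CACCC match, at -39 and -12. EPOR, which was lowest in the libraries labelled NCI-BL2171, also held a match, to AGATAA on the opposite strand at -78. RHAG held TGATAA on the opposite strand at -31, and EPB42 held AGATAA at -61. In GYPB the AGATAA lay across the start site, at -4, and in GYPE at -45, within 129 aligned bases of which 127 were identical between both genes. A match describes letters only and says nothing of binding.

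The nearest genes were examined to see whether members changed alone. KEL had 20 annotated protein-coding genes within 500 kb (distances are between gene bodies), of which 6 were tested. The nearest on either side, LLCFC1 at 246 bases and OR9A2 at 63477 bases, had no read, and TRPV5 at 7306 bases had 1 read over all libraries. EPHB6, a kinase-dead ephrin receptor 70020 bases away, had 0.583 and 0.866 TPM in RPMI-8226-R, 0.037 and 0.039 TPM in RPMI-8226, and 1.40 and 2.43 TPM in the libraries labelled NCI-BL2171. RPMI-8226 was thus the lowest line for EPHB6 as for KEL. EPHB6 rose in RPMI-8226-R against RPMI-8226 (log2 fold change 3.62 ± 0.43, edgeR adjusted p = 2.4e-07). It fell by 1.31 ± 0.27 on the log2 scale in RPMI-8226-R against NCI-BL2171 (edgeR adjusted p = 1.5e-04), a comparison in which KEL had a log2 fold change of 0.01. The TRPV6 and TRPV5 genes between EPHB6 and KEL were at most 0.107 TPM in any library.

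PRSS2, a trypsinogen gene 166550 bases from KEL, had 340.2 and 358.4 TPM in RPMI-8226-R, 49.2 and 56.4 TPM in RPMI-8226, and 0.204 and 0.292 TPM in the libraries labelled NCI-BL2171. It rose in RPMI-8226-R against RPMI-8226 by 2.32 ± 0.08 (log2, edgeR adjusted p = 3.7e-16). PRSS1 beyond it fell in that comparison (-0.86 ± 0.27, edgeR adjusted p = 0.00874), a call that 5 alternative settings ended, and its reads can be shared with PRSS2, a near-identical copy. On the other side of KEL, ZYX fell in RPMI-8226-R against RPMI-8226 (-1.38 ± 0.09, edgeR adjusted p = 9.7e-11). GSTK1 fell by 0.33 ± 0.08 on the log2 scale and CASP2 rose by 0.27 ± 0.10, but GSTK1 was at 0.03 on log2(TPM + 1) and CASP2 missed the threshold without RPMI-8226-R replicate 2 (0.15) or RPMI-8226 replicate 1 (0.16). The 6 tested genes around KEL thus split into 3 that rose and 3 that fell.

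Around XK the sides differed. LANCL3, 1293 bases upstream, had 0.008 and 0.012 TPM in RPMI-8226-R, 0.101 and 0.017 TPM in RPMI-8226, and 7.16 and 6.14 TPM in the libraries labelled NCI-BL2171. PRRG1 beyond it had 0 reads in both RPMI lines and 7.30 and 6.58 TPM in the libraries labelled NCI-BL2171. CYBB, the phagocyte oxidase subunit 47881 bases downstream, had 21.7 and 22.8 TPM in RPMI-8226-R, 17.9 and 18.2 TPM in RPMI-8226, and 0.749 and 0.714 TPM in the libraries labelled NCI-BL2171. LANCL3 and PRRG1 were thus highest in the libraries labelled NCI-BL2171, as XK was, and CYBB was lowest there. LANCL3 fell by 8.21 ± 0.31 on the log2 scale in RPMI-8226-R against NCI-BL2171 (edgeR adjusted p = 6.1e-16), from 2 and 3 reads in RPMI-8226-R. PRRG1 was at least 146-fold lower there (edgeR adjusted p = 6.1e-14). CYBB rose by 4.79 ± 0.10 in the same comparison (edgeR adjusted p = 5.1e-20) and SRPX, further downstream, by 4.70 ± 0.43 (edgeR adjusted p = 2.3e-09). DYNLT3 rose by 0.20 ± 0.09 (edgeR adjusted p = 0.0492), a call that 8 of the alternative settings ended. In RPMI-8226-R against RPMI-8226, LANCL3, DYNLT3 and SRPX fell, where XK had a log2 fold change of 0.24, and the calls of LANCL3 and SRPX ended without 1 library (LANCL3 without RPMI-8226 replicate 1, SRPX without RPMI-8226-R replicate 2 or RPMI-8226 replicate 2) or under other settings.

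**Figure D2:**
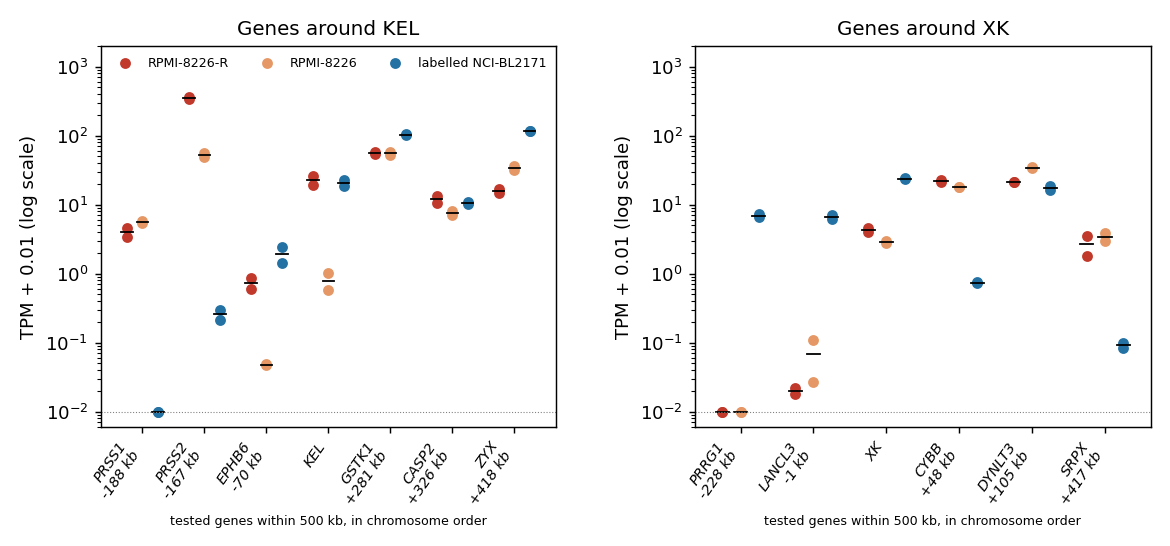
Levels of the tested protein-coding genes within 500 kb of KEL (left) and XK (right), as TPM plus 0.01 on a log axis, in order along the chromosome with the distance from the member. Points are libraries and black lines are means of 2 libraries. EPHB6 is lowest in RPMI-8226 like KEL, and LANCL3 and PRRG1 are at or near 0 in both RPMI lines while CYBB is high there.

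Around ANK1 all 9 tested neighbours fell in RPMI-8226 against NCI-BL2171, namely GOLGA7, GINS4, GPAT4, KAT6A, AP3M2, PLAT, IKBKB, POLB and VDAC3, although GINS4 missed the threshold with an effective-length offset. Their log2 fold changes had a median of -0.90, against -9.66 for ANK1 itself. In RPMI-8226-R against NCI-BL2171, 6 of the 9 fell (GOLGA7, GPAT4, AP3M2, PLAT, POLB and VDAC3) and KAT6A rose by 0.30 ± 0.09, but KAT6A was at -0.04 with an effective-length offset and the call of VDAC3 ended under 10 of the alternatives, among them without RPMI-8226-R replicate 2 (-0.12). Around RHAG, MMUT, CRISP3 and DEFB133 fell in RPMI-8226-R against NCI-BL2171 among 5 tested genes, and of these MMUT was the one above 3 TPM. Around EPB42, 14 of 17 tested genes fell and 1, TGM5, rose in RPMI-8226 against NCI-BL2171, and around EPOR 11 of 25 rose and 7 fell. Over all 8 members 71 neighbours were tested, of which 77.5% were called in RPMI-8226-R against RPMI-8226, 85.9% in RPMI-8226-R against NCI-BL2171 and 84.5% in RPMI-8226 against NCI-BL2171. Those shares stood beside 65.6%, 77.4% and 76.7% of all tested genes in the same 3 comparisons. The neighbours were all protein-coding, while the tested genes were not limited to that class, so no excess is read from these shares.

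The genes with the most similar pattern were sought among 12490 protein-coding genes, by the root mean square difference of centred log2(TPM + 1) over the 6 libraries. For GYPB these were OR51B5, RHAG and APOC1, and for RHAG they were GYPB, CA1 and OR51B5. Both members were chosen on their levels in these same libraries, so nothing is read from their nearness to each other. For KEL they were LPGAT1, ST3GAL2 and DGCR8, at differences of 0.49, 0.62 and 0.62. LPGAT1 had 27.8 and 31.6 TPM in RPMI-8226-R, 2.20 and 1.29 TPM in RPMI-8226, and 16.0 and 16.1 TPM in the libraries labelled NCI-BL2171. This measure is small for genes at low TPM, with 0.03 for the nearest gene to EPB42, so its size is not compared between members. For XK the 3 nearest were NCOA4, SEMA4C and NUDT4B, at 0.05 to 0.06, for EPOR they were GTSE1, SDSL and MBD2, for GYPE GP1BB, FAM83A and PRKAR2B, and for ANK1 CRKL, MS4A4A and POGLUT3. EPB42, under 1 TPM in every library, was nearest to SEC22B, VTA1 and TTK, all of them above 10 TPM throughout.

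The rest of the membrane skeleton and its transporters mostly fell in both RPMI lines against NCI-BL2171. Of 23 genes, all tested, 6 rose, 16 fell and 1 was not past the threshold in RPMI-8226-R against NCI-BL2171 (median log2 fold change -0.67, against 0.00 over all tested genes). In RPMI-8226 against NCI-BL2171 6 rose, 13 fell and 4 were not past it (median -0.75, against 0.09). SPTB, beta spectrin, fell by 5.80 ± 0.17 on the log2 scale in RPMI-8226-R against NCI-BL2171 (edgeR adjusted p = 7.1e-18) and by 4.48 ± 0.15 in RPMI-8226 against NCI-BL2171 (edgeR adjusted p = 6.8e-17). The water channel AQP1, with 6 and 15 reads in RPMI-8226, fell by 5.57 ± 0.28 in RPMI-8226 against NCI-BL2171 (edgeR adjusted p = 1.1e-13), and its log2 fold change was -6.40 without RPMI-8226 replicate 2. STOM, a membrane protein of many cells, rose instead, by 1.58 ± 0.07 in RPMI-8226-R and 1.87 ± 0.07 in RPMI-8226 (edgeR adjusted p = 3.7e-15 and 2.2e-16). The glucose transporter SLC2A1 rose by 1.34 ± 0.08 in RPMI-8226 (edgeR adjusted p = 2.2e-12).

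Between the RPMI lines the skeleton list split evenly, with 7 genes that rose, 7 that fell and 9 not past the threshold (median -0.19, against -0.12 over all tested genes). On log2(TPM + 1), 11 rose and 3 fell, so the split depends on the fit used. TMOD1, the tropomodulin that caps the actin of the skeleton, had 0.074 and 0.037 TPM in RPMI-8226-R, 2.45 and 2.25 TPM in RPMI-8226, and 28.9 and 29.5 TPM in the libraries labelled NCI-BL2171. It fell by 5.77 ± 0.24 in RPMI-8226-R against RPMI-8226 (edgeR adjusted p = 1.5e-14) and by 9.08 ± 0.18 in RPMI-8226-R against NCI-BL2171 (edgeR adjusted p = 9.3e-21), with -6.37 and -9.69 without RPMI-8226-R replicate 1. DMTN, dematin, fell by 2.36 ± 0.18 in RPMI-8226-R against RPMI-8226 (edgeR adjusted p = 2.2e-10). SPTB fell by 1.32 ± 0.24 (edgeR adjusted p = 6.4e-05), a call that ended on log2(TPM + 1). MPP1, the palmitoylated scaffold protein of the red cell membrane, rose by 1.14 ± 0.07 (edgeR adjusted p = 1.2e-11). RPMI-8226-R was thus below RPMI-8226 for TMOD1, DMTN and SPTB while it was above it for KEL and ANK1.

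**Figure D3:**
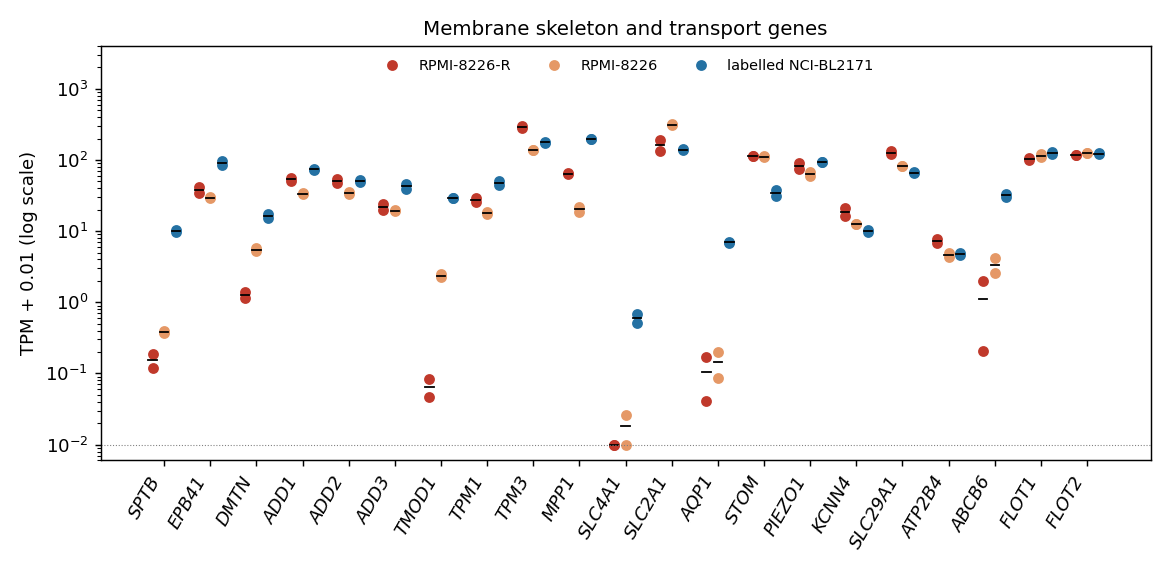
Levels of 21 of the membrane skeleton and transport genes in every library, as TPM plus 0.01 on a log axis. Points are libraries and black lines are means of 2 libraries. SPTB, TMOD1, SLC4A1 and AQP1 separate the RPMI lines from the libraries labelled NCI-BL2171, while FLOT1, FLOT2 and ADD2 differ little between the lines.

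Other carriers of blood group antigens fell more often than they rose in RPMI-8226-R. Against RPMI-8226, 5 of 23 tested carriers rose, 14 fell and 4 were not past the threshold (median log2 fold change -1.16, against -0.12 over all tested genes). On log2(TPM + 1) 9 of them fell, and without RPMI-8226 replicate 1 only 3 rose. RHCE, a carrier of the Rh antigens that needs RHAG, had 1.15 and 1.42 TPM in RPMI-8226-R, 7.90 and 6.38 TPM in RPMI-8226, and 23.7 and 30.4 TPM in the libraries labelled NCI-BL2171. RHCE fell by 2.93 ± 0.17 in RPMI-8226-R against RPMI-8226 (edgeR adjusted p = 3.4e-12), and the Lutheran glycoprotein BCAM fell by 2.96 ± 0.19 (edgeR adjusted p = 1.4e-11). RHCE was thus read in RPMI-8226 where RHAG had 1 read per library. ABCG2, the drug exporter that carries the Junior antigen, had 40.5 and 44.6 TPM in RPMI-8226-R, 9.53 and 8.24 TPM in RPMI-8226, and 4.35 and 4.54 TPM in the libraries labelled NCI-BL2171. It rose by 1.92 ± 0.08 in RPMI-8226-R against RPMI-8226 (edgeR adjusted p = 2.2e-14) and by 3.49 ± 0.09 in RPMI-8226-R against NCI-BL2171 (edgeR adjusted p = 1.3e-18). A second exporter, ABCC4, rose by 1.33 ± 0.09 between the RPMI lines (edgeR adjusted p = 2.3e-11).

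Against NCI-BL2171, 7 carriers rose, 14 fell and 2 were not past the threshold in RPMI-8226-R (median -1.78, against 0.00), and 12 rose and 11 fell in RPMI-8226 (median 0.16, against 0.09). GYPC, a glycophorin unrelated to GYPB that anchors the skeleton, had 0.247 and 0 TPM in RPMI-8226-R, 0.038 and 0.142 TPM in RPMI-8226, and 131.2 and 144.9 TPM in the libraries labelled NCI-BL2171. It fell by 10.77 ± 0.22 in RPMI-8226-R and fell by 10.37 ± 0.22 in RPMI-8226 (edgeR adjusted p = 1.6e-19 and 2.2e-19). These sizes rest on at most 4 reads of GYPC in any RPMI library. The log2 fold change in RPMI-8226-R was -14.79 without RPMI-8226-R replicate 1 and -9.75 without RPMI-8226-R replicate 2, and that in RPMI-8226 was -9.67 without RPMI-8226 replicate 1 and -11.63 without RPMI-8226 replicate 2. RHD, the carrier of the D antigen, had 0 and 0.029 TPM in RPMI-8226-R, 0.109 and 0 TPM in RPMI-8226, and 17.1 and 14.0 TPM in the libraries labelled NCI-BL2171. Its count ratio was 738-fold lower in RPMI-8226-R (95% exact counting interval 204 to 6100, edgeR adjusted p = 2.6e-13), and it can share reads with RHCE, a close copy. CD44, which carries the Indian antigens, rose by 2.64 ± 0.15 in RPMI-8226-R and by 2.11 ± 0.16 in RPMI-8226 (edgeR adjusted p = 1.1e-12 and 8.0e-11). RHD, RHCE and GYPC were thus below the libraries labelled NCI-BL2171 in both RPMI lines, RHCE in RPMI-8226 by the least, whereas CD44 and ABCG2 were above them.

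The enzymes that build carbohydrate blood groups moved in both directions in every comparison. Of 8 tested enzymes 4 rose and 4 fell in RPMI-8226-R against RPMI-8226, 4 rose, 3 fell and 1 was not past the threshold in RPMI-8226-R against NCI-BL2171, and 4 rose and 4 fell in RPMI-8226 against NCI-BL2171. On log2(TPM + 1) only 2 fell between the RPMI lines. ABO, the transferase of the ABO group, had 0 TPM in both RPMI-8226-R libraries, 0.173 and 0.656 TPM in RPMI-8226, and 11.9 and 12.2 TPM in the libraries labelled NCI-BL2171. It was at least 196-fold lower in RPMI-8226-R than in those libraries (edgeR adjusted p = 2.7e-15). ABO and FUT1, which makes the H antigen on red cells and fell by 2.50 ± 0.14 in RPMI-8226 against NCI-BL2171 (edgeR adjusted p = 5.5e-13), were lowest in RPMI-8226-R. The secretor enzyme FUT2 and the Lewis enzyme FUT3 had 0 reads in the libraries labelled NCI-BL2171, against which FUT2 was at least 27.8-fold higher in RPMI-8226-R (edgeR adjusted p = 4.4e-09) and FUT3 at least 31.1-fold higher in RPMI-8226 (edgeR adjusted p = 2.4e-08). Between the RPMI lines FUT2 rose by 1.27 ± 0.36 in reads (edgeR adjusted p = 0.00378), but its change was -0.67 on log2(TPM + 1) and -1.40 with an effective-length offset. FUT3, with 13 and 3 reads in RPMI-8226-R, fell by 3.62 ± 0.50 (edgeR adjusted p = 2.4e-06), with -5.04 without RPMI-8226-R replicate 1 and -2.87 without RPMI-8226-R replicate 2. The globoside enzyme B3GALNT1 rose by 2.87 ± 0.39 (edgeR adjusted p = 1.4e-06). A4GALT, the P1 and Pk synthase, rose by 5.61 ± 0.29 in RPMI-8226-R against NCI-BL2171 (edgeR adjusted p = 1.4e-13), and GBGT1, the Forssman synthase homologue, fell by 4.60 ± 0.23 (edgeR adjusted p = 5.8e-14).

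**Figure D4:**
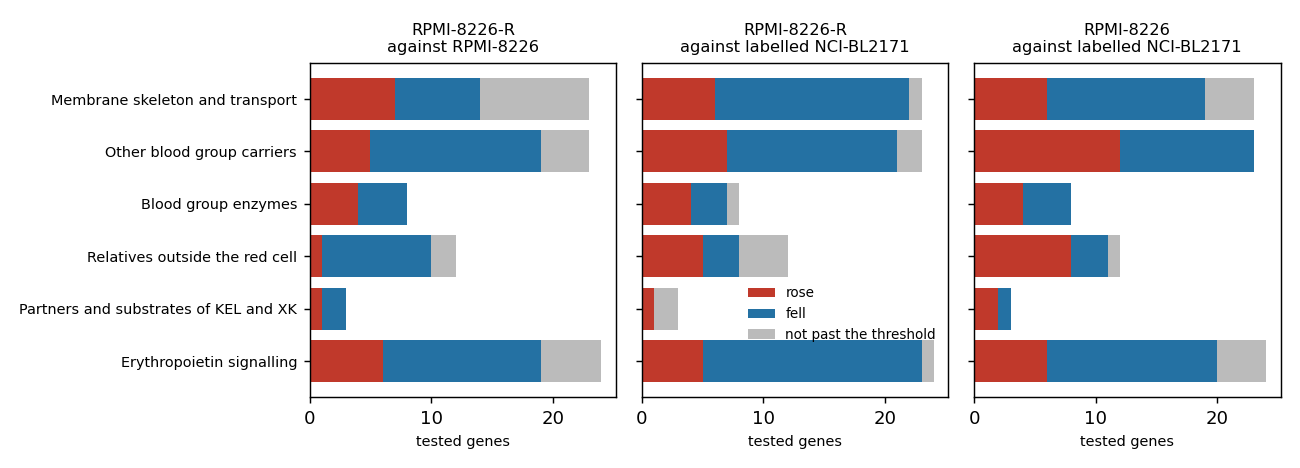
Number of tested genes in each list that rose (red), fell (blue) or were not past an edgeR adjusted p of 0.05 (grey), for the 3 comparisons. Erythropoietin signalling has 18 genes that fell in RPMI-8226-R against NCI-BL2171, and the carriers have 14 that fell between the RPMI lines.

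Partners and substrates of the Kell complex were examined beside KEL and XK. VPS13A, the lipid transfer protein that binds XK, had 6.59 and 6.46 TPM in RPMI-8226-R, 2.48 and 2.21 TPM in RPMI-8226, and 4.199 and 7.425 TPM in the libraries labelled NCI-BL2171. VPS13A rose by 1.07 ± 0.11 in RPMI-8226-R against RPMI-8226 (edgeR adjusted p = 3.4e-08) and fell by 0.91 ± 0.11 in RPMI-8226 against NCI-BL2171 (edgeR adjusted p = 2.8e-07). RPMI-8226 was thus the lowest line for VPS13A as for KEL, with RPMI-8226-R inside the range of the libraries labelled NCI-BL2171. EDN2, an endothelin, had 1.98 and 2.07 TPM in RPMI-8226-R, 47.0 and 49.8 TPM in RPMI-8226, and 0 TPM in both libraries labelled NCI-BL2171. EDN2 fell by 4.95 ± 0.13 in RPMI-8226-R against RPMI-8226 (edgeR adjusted p = 4.6e-17). EDN1 had 0 reads in RPMI-8226-R, 2.50 and 2.83 TPM in RPMI-8226, and 0 reads in the libraries labelled NCI-BL2171. It fell at least 51.8-fold between the RPMI lines (edgeR adjusted p = 4.5e-10). Endothelin transcripts were thus highest in RPMI-8226, the line in which KEL was lowest. EDN3, whose precursor Kell is best known to cleave, had at most 6 reads in a library and was not tested.

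Of the genes listed for erythropoietin signalling, inhibitors and targets among them, more fell than rose in both RPMI lines against NCI-BL2171. The level of EPOR was higher in those lines. Of 24 tested genes 5 rose, 18 fell and 1 was not past the threshold in RPMI-8226-R against NCI-BL2171 (median log2 fold change -2.11, against 0.00 over all tested genes), and 6 rose, 14 fell and 4 were not past it in RPMI-8226 against NCI-BL2171 (median -0.68, against 0.09). The ligand EPO was not tested, with at most 15 reads in a library. JAK2, the receptor's kinase, had 0.793 and 1.24 TPM in RPMI-8226-R, 0.968 and 0.978 TPM in RPMI-8226, and 4.58 and 6.22 TPM in the libraries labelled NCI-BL2171. STAT5A had 2.40 and 1.97 TPM in RPMI-8226-R, 2.28 and 2.12 TPM in RPMI-8226, and 39.1 and 42.2 TPM in the libraries labelled NCI-BL2171. In both genes the RPMI lines overlapped each other and lay below the remaining libraries. JAK2 fell by 2.60 ± 0.16 in RPMI-8226-R and by 2.44 ± 0.16 in RPMI-8226 against NCI-BL2171 (edgeR adjusted p = 2.4e-12 and 6.9e-12). STAT5A fell by 4.60 ± 0.10 and 4.01 ± 0.09 in the same comparisons (edgeR adjusted p = 3.0e-20 and 1.4e-19), and STAT5B fell by 3.11 ± 0.07 and 3.31 ± 0.07 (edgeR adjusted p = 1.7e-19 and 8.6e-20). The receptor was thus higher in the lines in which its kinase and STAT5 were lower.

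Targets and inhibitors of the pathway moved in different directions. PIM1, a kinase that STAT5 induces, had 21.6 and 26.7 TPM in RPMI-8226-R, 128.0 and 122.6 TPM in RPMI-8226, and 746.5 and 760.7 TPM in the libraries labelled NCI-BL2171. PIM1 fell by 5.12 ± 0.08 in RPMI-8226-R against NCI-BL2171 (edgeR adjusted p = 1.9e-22) and by 2.78 ± 0.07 in RPMI-8226-R against RPMI-8226 (edgeR adjusted p = 5.6e-18). TFR2, the transferrin receptor that associates with EPOR, fell by 5.47 ± 0.13 in RPMI-8226-R and by 5.93 ± 0.14 in RPMI-8226 against NCI-BL2171 (edgeR adjusted p = 2.2e-19 and 1.6e-19). The negative regulators split. SH2B3, CBL, SOCS2 and CISH fell in both RPMI lines against NCI-BL2171 and SOCS3 in RPMI-8226-R, while SOCS1 fell in RPMI-8226-R and rose in RPMI-8226. Of the phosphatases, PTPN6 rose by 3.03 ± 0.13 in RPMI-8226-R and by 3.87 ± 0.13 in RPMI-8226 (edgeR adjusted p = 6.3e-15 and 6.0e-17), and INPP5D rose by 2.10 ± 0.24 and 2.31 ± 0.23 (edgeR adjusted p = 1.6e-05 and 7.7e-06), or 2.70 and 2.91 without NCI-BL2171 replicate 1.

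In RPMI-8226-R against RPMI-8226, where EPOR had a log2 fold change of 0.09, 6 genes of the pathway rose, 13 fell and 5 were not past the threshold (median -0.30, against -0.12). On log2(TPM + 1) 6 fell. SOCS1, a feedback inhibitor of JAK kinases, had 2.58 and 1.63 TPM in RPMI-8226-R, 44.7 and 46.5 TPM in RPMI-8226, and 17.6 and 13.6 TPM in the libraries labelled NCI-BL2171. SOCS1 fell by 4.97 ± 0.20 (edgeR adjusted p = 1.3e-09). The stem cell factor receptor KIT rose by 1.57 ± 0.26 (edgeR adjusted p = 1.5e-05) and the adaptor SHC1 by 0.60 ± 0.06 (edgeR adjusted p = 4.5e-08). For JAK2 the value was -0.16 ± 0.18 on the log2 scale (edgeR adjusted p = 0.457). STAT5A fell by 0.59 ± 0.12 and STAT5B rose by 0.20 ± 0.08, calls that ended on log2(TPM + 1) and with an effective-length offset, and for STAT5B also without RPMI-8226-R replicate 2 (0.17) or RPMI-8226 replicate 1 (0.15).

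**Figure D5:**
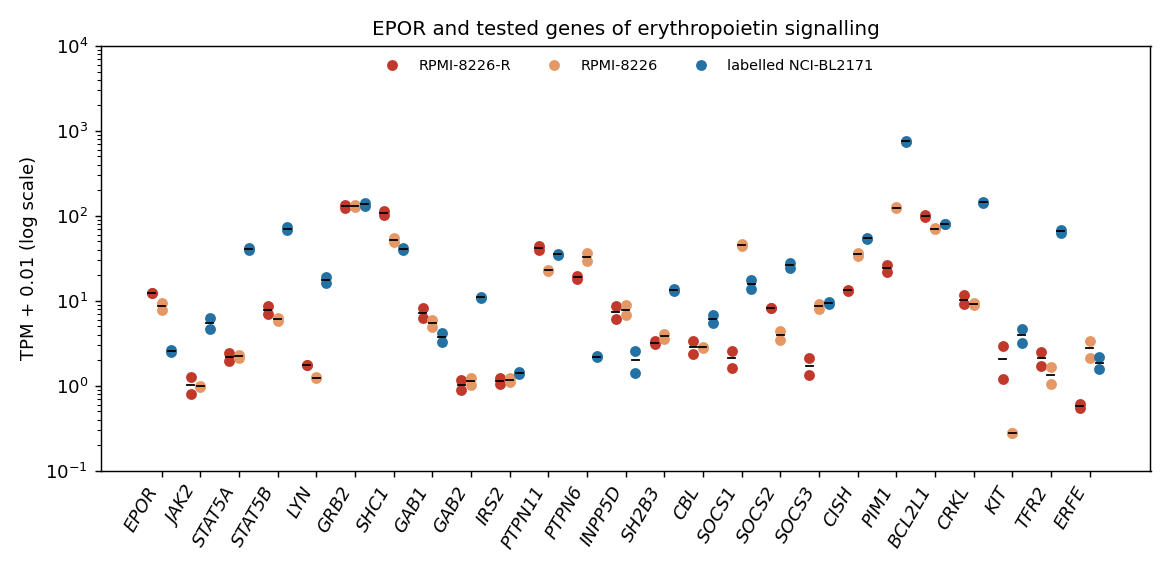
Levels of EPOR and 24 tested genes of erythropoietin signalling in every library, as TPM plus 0.01 on a log axis. Points are libraries and black lines are means of 2 libraries. EPOR, PTPN6 and INPP5D are lowest in the libraries labelled NCI-BL2171, and JAK2, STAT5A, STAT5B, PIM1, CRKL and TFR2 are highest there.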

How the data were processed

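Ribosomal RNA was removed from total RNA of 6 untreated libraries before sequencing, per the labels. Each library has a deposited table with an estimated count of reads and a TPM value per gene, beside lengths and effective lengths, per the file headers. Lengths are another deposited unit, in bases. The submitters' processing notes name the build GRCh38.p13. For the quantifier, its annotation and its strand setting nothing is stated in the sources used here, so that reads of overlapping, antisense or copied genes may be split in ways not tested. Totals were 23952372 to 29052194 reads per library after rounding of the estimated counts. The 46 pseudoautosomal copies were added to their X genes, leaving 61498 genes, of which 61490 had a symbol and 58298 a position in GENCODE 29 (GRCh38). A chi-square per gene of 3.34 to 10.2 between libraries of a line showed no library deposited again under a second name.

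The rounded counts entered edgeR 4.0.16 under R 4.3.3 (TMM, filterByExpr with minimum count 10 and total 15, robust quasi-likelihood F test over 6 libraries, 3 residual degrees of freedom, Benjamini-Hochberg over 20081 genes at 0.05). Folds against a line at 0 use a floor of 3 counts per library, and intervals are exact at 95%. Each SE is the size of the log2 fold change over the square root of F, and is too narrow where a line has few reads. The fit was tested on simulated data. Members and gene lists were chosen with earlier results of these data known. Beside the members and preset partners, the text names up to 2 rises and 2 falls per list and comparison, the largest called, at 1 TPM or more in the higher line and without overlap. Neighbours are named around KEL and XK and where 3 or more moved with a member, except around EPB42 and EPOR and around ANK1 between the RPMI lines, where counts are given. The inhibitors SH2B3, CBL, SOCS2, SOCS3 and CISH were named after their values were seen. A few genes of these lists are left out of the text. Promoters are from RefSeq. Alternatives were DESeq2 1.42.0, limma 3.58.1 on log2(TPM + 1), an effective-length offset, no filter, a replicate block, the compared lines alone and each library left out.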

Additional observations from a re-analysis of the deposited data

How the results depend on the processing

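Counts of genes called in either direction, over all genes, pathway genes and neighbours, stayed within 1.5 times their values under all alternatives run, but counts in 1 direction moved more. Without 1 library each, 11600 to 13192 genes were called in RPMI-8226-R against RPMI-8226. The fit on log2(TPM + 1), which applied no TMM factors, mattered most for that comparison. There 5716 genes were higher and 7461 lower in reads, but 7030 higher and 4557 lower in the TPM fit. That fit moved the median of all genes by 0.20. With an effective-length offset and TMM kept, 4884 were higher and 6543 lower. The TPM fit changes length and TMM factors together, and the part of each was not tested. It moved the median by -0.17 in RPMI-8226 against NCI-BL2171. There 8248 were higher and 7153 lower in reads, 6472 and 7722 in the TPM fit, and 7607 and 6522 with the offset. FUT2 turned to -0.67 on log2(TPM + 1) and to -1.40 with an effective-length offset, and GSTK1 to 0.029 on log2(TPM + 1), all for RPMI-8226-R over RPMI-8226, and KAT6A to -0.040 with that offset for RPMI-8226-R over NCI-BL2171; the cause was not tested. The call of FUT2 also ended without RPMI-8226 replicate 1 (0.92). Same-numbered libraries correlated at 0.05 in their deviations and share only a number. With a replicate block 5665 genes were higher and 7380 lower between the RPMI lines, 7810 and 7616 in RPMI-8226-R against NCI-BL2171, and 8188 and 7107 in RPMI-8226 against NCI-BL2171.

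Depth limits what EPB42 can show. With 32 and 40 reads of EPB42 in the libraries labelled NCI-BL2171, a level 12.1-fold lower in RPMI-8226 would not be told from 0.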

Other observations

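Relatives of the members that serve outside the red cell were in part low, and of the others some went with their member and some did not. Of 29 such genes 12 were tested. In RPMI-8226-R against RPMI-8226, 1 rose, 9 fell and 2 were not past the threshold (median log2 fold change -1.62, or -1.29 with genes at 0 set to their bound, against -0.12 over all tested genes), though without RPMI-8226 replicate 1 only 5 fell. ANK3, the ankyrin of epithelia and nerve, had 0 and 0.034 TPM in RPMI-8226-R, 1.36 and 1.53 TPM in RPMI-8226, and 9.26 and 10.7 TPM in the libraries labelled NCI-BL2171. Its count ratio was 88.8-fold lower in RPMI-8226-R than in RPMI-8226 (95% exact counting interval 30.0 to 433.4, edgeR adjusted p = 2.1e-11). ANK3 was thus near 0 in RPMI-8226-R, as ANK1 was, but above 1 TPM in RPMI-8226, where ANK1 had 4 and 2 reads. Both ANK1 and ANK3 were highest in the libraries labelled NCI-BL2171. ANK2 was not tested, with at most 8 reads in a library. The 1 relative that rose, TGM1, had an edgeR adjusted p of 0.0176 and lost its call with DESeq2 and without RPMI-8226-R replicate 1 or RPMI-8226 replicate 2.

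Against NCI-BL2171, 5 relatives rose, 3 fell and 4 were not past the threshold in RPMI-8226-R (3 rose on log2(TPM + 1) or with these 2 lines alone), and 8 rose, 3 fell and 1 was not past it in RPMI-8226. MME, neprilysin and like KEL a zinc endopeptidase, had 2.49 and 2.66 TPM in RPMI-8226-R, 29.6 and 30.99 TPM in RPMI-8226, and 0.419 and 0.269 TPM in the libraries labelled NCI-BL2171. It rose by 3.91 ± 0.16 in RPMI-8226-R against NCI-BL2171 (edgeR adjusted p = 2.4e-15) and by 7.497 ± 0.127 in RPMI-8226 against NCI-BL2171 (edgeR adjusted p = 9.8e-22). Its order over the lines was the reverse of that of KEL for the RPMI pair. TGM2, tissue transglutaminase and a relative of EPB42, had 0 reads in RPMI-8226-R, 0.123 and 0.034 TPM in RPMI-8226, and 34.9 and 32.9 TPM in the libraries labelled NCI-BL2171, at least 1406-fold lower in RPMI-8226-R (edgeR adjusted p = 9.7e-21). TGM2 was thus highest in the libraries labelled NCI-BL2171, as EPB42 was. XKR6, a relative of XK, had 3.10 and 4.42 TPM in RPMI-8226-R, 4.70 and 3.23 TPM in RPMI-8226, and 0 and 0.054 TPM in the libraries labelled NCI-BL2171, opposite to XK. Another relative of XK, XKR3, was called lower in both RPMI lines against NCI-BL2171, as XK was, with a log2 fold change of -4.31 in RPMI-8226.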
